A study of Mus musculus with 5 samples.

Results

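The developmental transcription factors described here are 47 regulators outside the Hox clusters, taken by gene symbol from a list that spans homeobox, paired box, T-box, GATA, forkhead, zinc finger and bHLH-PAS families. Of these, 45 matched 1 row each among the 26369 genes of the count table, and 2 (Foxd3 and Phox2a) matched none and are not analysed here. Strand-specific, ribosomal RNA-depleted total RNA of the striatum was compared between R6/1 mice (n = 2 libraries) and wild-type (WT) mice (n = 3 libraries), both on a mixed background of equal CBA and C57BL/6 parts. R6/1 mice carry exon 1 of human HTT, the gene mutated in Huntington's disease, as a transgene with a CAG repeat labelled as 115, driven by the human gene's own promoter and added to their own mouse gene, and WT mice carry no transgene. The sources used here give no age, sex, litter or batch. Nor do the labels state that each library is its own animal, and the p-values therefore cover only how far these libraries vary, which may be technical.

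Regulators of this kind bind DNA and set the identity of cells in the embryo, each in its own organs or segments of the neural tube. In differentiated cells most of them are kept silent by Polycomb complexes, which mark histones at their start sites, often in stretches of DNA rich in CG dinucleotides. In the adult striatum a few of them stay active in particular cells, such as Nkx2-2 and Nkx6-2 in the oligodendrocyte lineage and Pax6 in glia and some neurons. The silencing of such genes has been of interest in Huntington's disease because the huntingtin protein was reported to act on Polycomb.

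The totals ranged from 29871306 to 34379064 counts in R6/1 libraries and from 19630036 to 23046266 in WT libraries, so that depth and genotype go together and raw counts of the groups are not directly comparable. Levels are therefore given as CPM, counts scaled to a common library total, after TMM, a correction for library make-up. In that unit 1 count stood for 0.0277 to 0.0319 CPM in R6/1 and for 0.0448 to 0.0527 CPM in WT. The tissue label was checked on 15 markers of medium spiny neurons, the principal striatal cell type. All 15 were counted, and they summed to 2490 and 2563 CPM in R6/1, against 8863 to 10220 CPM in WT. In the test described below all 15 were called lower in R6/1, with a median log2 fold change of -1.81, beside 12.8% lower over all tested genes. Choroid plexus transcripts set WT replicates 1 and 2 apart, as described with the members they touch.

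To show the DNA at which such genes start, the 250 bases before the RefSeq start site are printed for 5 members. Lmx1b, Onecut1 and Pax2 had at most 3 counts over the WT libraries and 14 or more over the R6/1 libraries, while Irx2 and Barhl1 had at most 4 counts in either group. Each runs 5′ to 3′ on the strand of its gene, with CG dinucleotides in capitals (GRCm38.p6, RefSeq).
Lmx1b, chr2:33641099-33641348, minus strand: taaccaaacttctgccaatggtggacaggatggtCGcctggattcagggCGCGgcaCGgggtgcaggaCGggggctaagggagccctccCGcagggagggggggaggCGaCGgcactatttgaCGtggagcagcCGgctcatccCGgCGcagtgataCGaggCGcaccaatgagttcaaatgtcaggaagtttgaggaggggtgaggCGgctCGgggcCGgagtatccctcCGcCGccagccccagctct
Onecut1, chr9:74861671-74861920, plus strand: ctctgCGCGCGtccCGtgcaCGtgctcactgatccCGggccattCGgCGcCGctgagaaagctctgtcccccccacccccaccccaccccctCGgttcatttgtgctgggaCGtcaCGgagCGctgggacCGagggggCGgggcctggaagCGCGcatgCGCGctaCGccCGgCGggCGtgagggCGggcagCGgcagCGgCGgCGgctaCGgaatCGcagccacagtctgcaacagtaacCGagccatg
Pax2, chr19:44746351-44746600, plus strand: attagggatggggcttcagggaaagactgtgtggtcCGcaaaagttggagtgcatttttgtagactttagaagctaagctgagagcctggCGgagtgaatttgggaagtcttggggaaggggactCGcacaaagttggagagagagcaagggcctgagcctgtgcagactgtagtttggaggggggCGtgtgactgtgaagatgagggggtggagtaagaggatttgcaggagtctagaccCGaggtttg
Irx2, chr13:72628570-72628819, plus strand: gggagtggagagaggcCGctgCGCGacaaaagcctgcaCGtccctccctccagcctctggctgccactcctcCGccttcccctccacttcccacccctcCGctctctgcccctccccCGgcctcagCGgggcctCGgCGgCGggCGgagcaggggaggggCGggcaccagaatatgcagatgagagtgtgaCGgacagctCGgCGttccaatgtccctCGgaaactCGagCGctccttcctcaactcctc
Barhl1, chr2:28916669-28916918, minus strand: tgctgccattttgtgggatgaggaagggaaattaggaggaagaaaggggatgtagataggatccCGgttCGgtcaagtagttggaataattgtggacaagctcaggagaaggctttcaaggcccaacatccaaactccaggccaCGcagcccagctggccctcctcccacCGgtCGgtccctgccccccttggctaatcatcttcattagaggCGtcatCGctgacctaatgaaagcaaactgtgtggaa

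CG dinucleotides were frequent but not uniform in these windows. Onecut1 had 31, more than 95.1% of all promoters, and Lmx1b had 19, more than 80.4% of them. Pax2, counted in R6/1 libraries alone, had only 5, more than 44.5% of promoters. Irx2, which stayed near 0, had 19, as many as Lmx1b, and Barhl1 had 7. RefSeq windows were found for 31 of the 45 members. Their median was 15 CG per window with a range of 4 to 36, against a median of 6 over 27025 promoters and of 15 over the 10983 promoters of genes tested for expression. The 5 members with a window that were called higher in R6/1 had a median of 19, and the other 26 a median of 14. The letters GGGCGG, searched on both strands, occurred in 3 of those 5 windows, in 14 of the other 26, in 17 of all 31, in 57.2% of windows of tested genes and in 32.9% of all windows. Among members with a window, CG content therefore overlapped between those that rose and those that did not, and no test was made on it. Wt1, Irx5, Onecut2 and En2, which were also called higher in R6/1, had no window.

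**Figure D1:**
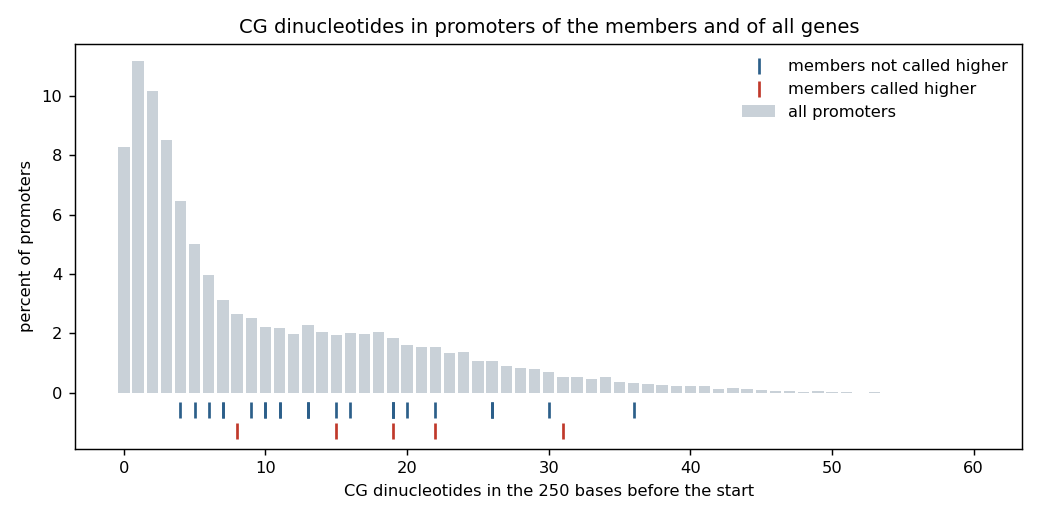
The number of CG dinucleotides in the 250 bases before the start site (horizontal axis) is shown as the percent of all 27025 promoters (bars), with marks below for members called higher in R6/1 (red, n = 5) and for the other members (blue, n = 26). Marks of both colours spread over the same range, from 8 to 31 for red and from 4 to 36 for blue.

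Which of these regulators differed in the R6/1 striatum was asked of every member. Of the 45, 9 rose in R6/1 (Wt1, Lmx1b, Irx5, Onecut1, Onecut2, Pax6, Nkx2-2, Gata2 and En2), 0 fell, 8 were tested and did not pass, and 28 were below the count filter of the test. Over all genes, 9.72% of 17202 rose and 12.8% fell (edgeR quasi-likelihood test, Benjamini-Hochberg adjusted p below 0.05). At an unadjusted p below 0.05, 2 members were lower in R6/1, of which DESeq2 called 1 after adjustment and limma-voom 0. The share among tested members cannot be read against this background, because 4 of the 9 had at most 4 counts over the WT libraries and passed the filter only through R6/1. With no filter, 11 of the 45 members rose (7.60% of all genes), the 9 with Nkx6-1 and Pax2, and 1 fell, Lmx1a (9.60%). With a filter on the mean CPM over all libraries, 8 of 15 tested members rose and Onecut1 was no longer tested (9.99% of all genes), but Wt1, Lmx1b and Irx5 passed that filter too only through R6/1, so this share cannot be read against its background either. In bulk tissue a change in the number of cells of a type and a change in RNA per cell cannot be told apart.

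The 9 rises differed widely in size. Wt1, Lmx1b, Onecut1 and Irx5 were nearly uncounted in WT, while Onecut2, Pax6, Nkx2-2, Gata2 and En2 were counted in each WT library and rose 1.55-fold to 2.77-fold. Both R6/1 libraries lay above all WT libraries for 11 of the 17 tested members (27.2% of tested genes) and below them for 2 (26.9%), a count that includes the 4 members whose separation the filter fixed and from which nothing is read. In the authors' deposited table, 12 members were higher at an adjusted p below 0.05, including all 9 of these rises, and none was lower, against 10.1% and 10.6% of its 26369 genes.

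**Figure D2:**
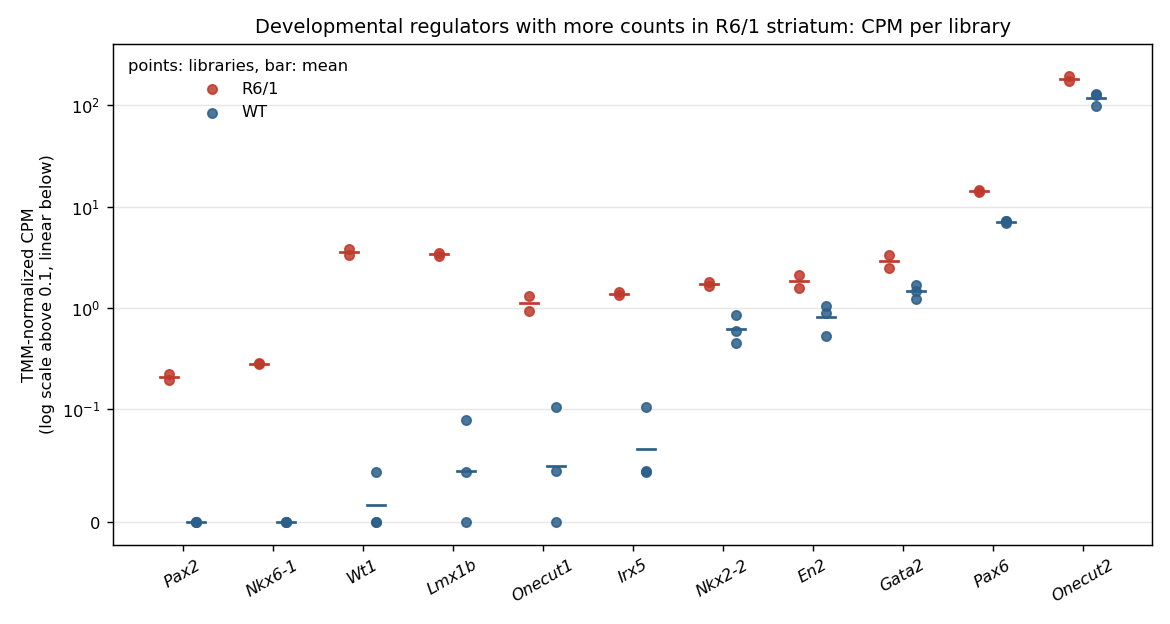
TMM-normalized CPM (vertical axis, logarithmic above 0.1 and linear below) of the 9 members called higher and of Pax2 and Nkx6-1, which were below the count filter, with 1 point per library, R6/1 in red, WT in blue and bars at the means. Every R6/1 point lies above every WT point of the same gene, and Wt1 reaches 3.32 and 3.77 CPM in R6/1 with 2 of 3 WT libraries at 0.

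Wt1 (ENSMUSG00000016458), a zinc finger regulator of kidney and gonad development, had 136 and 104 counts in the R6/1 libraries, against 1, 0 and 0 in the WT libraries. Its summed count per depth was 226 times that of WT, with a 95% counting interval of 40.2 to 8960. The rise was called in all 13 alternative settings with an edgeR, DESeq2 or limma-voom adjusted p of 2.35e-08 to 0.00610, and at 0.000293 in the edgeR test. Per kb of gene length, the authors' normalized signal of Wt1 was 37.4 in R6/1 and 0.155 in WT, against a median over tested genes of 248.5 in R6/1 and 245.6 in WT. Wt1 in R6/1 thus stood above 20.8% of tested genes, so it was counted well but stayed a low transcript.

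Among the 5 LIM homeobox members, Lmx1b rose, Lhx9 and Lmx1a did not pass and Lhx1 and Lhx5 were below the filter. Lmx1b (ENSMUSG00000038765), needed for dorsal limb pattern and for serotonergic and midbrain dopaminergic neurons, had 126 and 102 counts in R6/1, against 1, 0 and 2 in WT. The ratio of its summed counts was 71.5 with a counting interval of 24.2 to 349.5 (edgeR adjusted p = 0.000403, and 2.02e-09 to 0.00953 over the 13 alternatives). At 60.5 in R6/1 it had a higher normalized signal per kb than Wt1, above 26.5% of tested genes. Lhx9, a gonad and forebrain regulator, had 18 and 7 counts in R6/1 and 11, 12 and 5 in WT, with a log2 fold change of -0.28 (SE 0.57, edgeR adjusted p = 0.756). Lhx5 had 9 counts in all R6/1 libraries and 2 in WT, a ratio of 4.24 whose interval of 0.877 to 40.3 includes 1, and Lhx1 had 5 counts in R6/1 and 3 in WT. The paralog Lmx1a did not follow Lmx1b and is described with the choroid plexus values.

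Irx5 rose while its relatives of the Iroquois family stayed near the limit of counting. Irx5 (ENSMUSG00000031737), a homeobox gene of heart and retina development, had 48 and 45 counts in R6/1, against 1, 2 and 1 in WT. It was at 1.38 ± 0.0729 CPM in R6/1 (SD, n = 2) and at 0.0651 ± 0.0349 CPM in WT (SD, n = 3). Its log2 fold change was 4.35 (SE 0.45, edgeR adjusted p = 0.00111), and its summed counts differed 21.9-fold with a counting interval of 8.27 to 82.0. Irx3, which lies in the same gene cluster, had 8 and 11 counts in R6/1 and 9, 5 and 6 in WT, which is 0.894 times as many per depth (interval 0.452 to 1.77). Irx6, also of that cluster and the next counted gene after Irx5, had 5 counts in R6/1 and 7 in WT. In the other Iroquois cluster, Irx1 had 18 counts in R6/1 and 9 in WT, or 1.88 times as many per depth (interval 0.803 to 4.76), while Irx4 had 3 and Irx2 had 1 in R6/1 and neither had any in WT. The 5 members other than Irx5 were below the filter, so that a difference between them and Irx5 was not tested.

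Both tested Onecut genes rose, from very different levels. Onecut1 (ENSMUSG00000043013), a regulator of liver and pancreas development, had 47 and 29 counts in R6/1, against 0, 2 and 1 in WT, 23.9 times as many per depth (counting interval 7.86 to 118.2, edgeR adjusted p = 0.00442, 0.000131 to 0.0478 over the 12 alternatives that test it). Onecut2 (ENSMUSG00000045991), its paralog, had the highest normalized signal per kb of the tested members, 372 in R6/1 and 237 in WT, and was at 192.3 and 171.7 CPM in R6/1, against 127.7, 97.1 and 126.7 CPM in WT. R6/1 and WT values of Onecut2 did not overlap. Its log2 fold change of 0.64 (SE 0.13, edgeR adjusted p = 0.0138) was the smallest among the 9 rises. Leaving out R6/1 replicate 1 (adjusted p = 0.103) or R6/1 replicate 2 (0.0588) ended the call, as did the choroid plexus covariate described below (0.117), the range over the 13 alternatives being 4.59e-05 to 0.117. Onecut3 had 2 counts in each group.

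In the paired box family, whose members direct eye, kidney, muscle and skeletal development, Pax6 rose. Pax6 (ENSMUSG00000027168), the regulator of eye and forebrain development, had 497 and 457 counts in R6/1, against 152, 137 and 161 in WT. At 13.8 and 14.6 CPM in R6/1, against 6.81, 7.22 and 7.26 CPM in WT, it was the member with the closest replicates among those with over 100 counts in each library. Its log2 fold change was 1.00 (SE 0.13, edgeR adjusted p = 0.00277), and it was called in all 13 alternatives (adjusted p 9.49e-08 to 0.0365). Elp4, a gene that overlaps the end of Pax6 on the opposite strand in RefSeq, rose too, with a log2 fold change of 0.57 (SE 0.09, edgeR adjusted p = 0.00517). The sources used here do not state the strand setting of the counting, so that reads of the overlap cannot be told apart.

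Pax2 (ENSMUSG00000004231), which acts in kidney and at the midbrain-hindbrain boundary, had 7 and 7 counts in R6/1 and none in any WT library. Against a floor of 3 counts over the WT libraries, or 0.0473 CPM, it was 4.39-fold higher in R6/1. That ratio leaves out counting error in R6/1, and the counting interval of Pax2 began at 3.12. Pax2 was below the filter and was called only when no filter was used (edgeR adjusted p = 0.0235). Pax1 had 1 and 9 counts in R6/1 and 0, 2 and 1 in WT, so that R6/1 replicate 2 gave 9 of its 10 R6/1 counts. Pax3, Pax5, Pax7, Pax8 and Pax9 had at most 5 counts over the R6/1 libraries and at most 7 over the WT libraries, and every counting interval included 1.

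Of the NK homeobox genes, Nkx2-2 (ENSMUSG00000027434), a regulator of the ventral neural tube and of oligodendrocyte differentiation, had 60 and 56 counts in R6/1, against 10, 16 and 13 in WT. It was at 1.73 ± 0.0855 CPM in R6/1 (SD, n = 2) and at 0.626 ± 0.200 CPM in WT (SD, n = 3), with a log2 fold change of 1.47 (SE 0.32, edgeR adjusted p = 0.0182). Omitting R6/1 replicate 1 (adjusted p = 0.0970), R6/1 replicate 2 (0.114) or WT replicate 3 (0.0547) ended the call, as did the choroid plexus covariate (0.102), within a range of 0.00672 to 0.114 over all 13 alternatives. Nkx2-2as, the antisense transcript that overlaps it, was at 1.98 ± 0.183 CPM in R6/1 and 1.88 ± 0.672 CPM in WT and did not pass (log2 fold change 0.06, edgeR adjusted p = 0.910). Nkx6-2, a myelin-associated relative, was at 10.5 and 11.9 CPM in R6/1, against 8.06, 6.43 and 9.02 CPM in WT, with a log2 fold change of 0.51 (SE 0.18) that did not pass (edgeR adjusted p = 0.0792). Nkx6-1 (ENSMUSG00000035187), which acts in motor neurons and pancreatic beta cells, had 10 and 9 counts in R6/1 and none in WT. It was 5.96-fold higher in R6/1 against the floor of 3 WT counts, and its counting interval began at 4.39. It was called only with no filter (edgeR adjusted p = 0.00882).

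Oligodendrocyte markers give the setting for Nkx2-2 and Nkx6-2. Of 10 oligodendrocyte markers, 2 rose and 3 fell, beside 9.72% higher and 12.8% lower over all tested genes. Their sum was 4913 and 5103 CPM in R6/1, against 5023 to 6963 CPM in WT. Of 8 precursor markers edgeR called 0, where 1 was higher and 2 were lower at an unadjusted p below 0.05, DESeq2 called 1 higher and 1 lower, and limma-voom called 1 higher. The precursor list summed to 306.7 and 334.6 CPM in R6/1, against 353.1 to 355.2 CPM in WT. No marker of either list was at 0 in any library, and their part in the Nkx2-2 result was not tested.

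Gata2 and En2 completed the rises and rested on less. Gata2 (ENSMUSG00000015053), a regulator of blood progenitors and of midbrain GABAergic neurons, had 121 and 78 counts in R6/1, against 33, 32 and 27 in WT. Its log2 fold change was 1.00 (SE 0.25, edgeR adjusted p = 0.0301, and 0.0173 to 0.204 over the 13 alternatives), and the call was lost without R6/1 replicate 1, R6/1 replicate 2, WT replicate 1 or WT replicate 3 and with the choroid plexus covariate. Gata3 and Gata4 had 4 and 0 counts in R6/1 and 3 and 1 in WT. En2 (ENSMUSG00000039095), a regulator of midbrain and cerebellum, had 57 and 67 counts in R6/1, against 20, 10 and 23 in WT. Its log2 fold change was 1.16 (SE 0.33, edgeR adjusted p = 0.0451), and leaving out any single library ended the call, with adjusted p from 0.0609 to 0.250, and over all 13 alternatives it ran from 0.0255 to 0.302. En1 had 6 counts in R6/1 and 1 in WT, or 5.65 times as many per depth (interval 0.685 to 259.8).

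Of 4 T-box genes, edgeR called 0 of the 3 tested, none had an unadjusted p below 0.05, and DESeq2 and limma-voom also called 0. Tbx3, a limb and mammary regulator, was at 2.61 and 2.39 CPM in R6/1, against 1.67 to 2.20 CPM in WT (log2 fold change 0.35, SE 0.22, edgeR adjusted p = 0.286). Tbx18, expressed in pericytes and smooth muscle, had 1.96 ± 0.248 CPM in R6/1 and 1.97 ± 0.302 CPM in WT, with a log2 fold change of -0.0024 and an SE of 0.24. Tbx15, a skeletal regulator, was at 0.527 and 0.383 CPM in R6/1, against 0.896, 0.632 and 0.857 CPM in WT (log2 fold change -0.80, SE 0.36, edgeR adjusted p = 0.1501). Tbx5 had 11 counts in R6/1 and 9 in WT. Of 9 tested mural cell markers, 1 fell and 8 did not pass, beside 12.8% lower over all tested genes. The mural list had summed levels of 255.0 and 257.1 CPM in R6/1, against 273 to 285 CPM in WT.

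**Figure D3:**
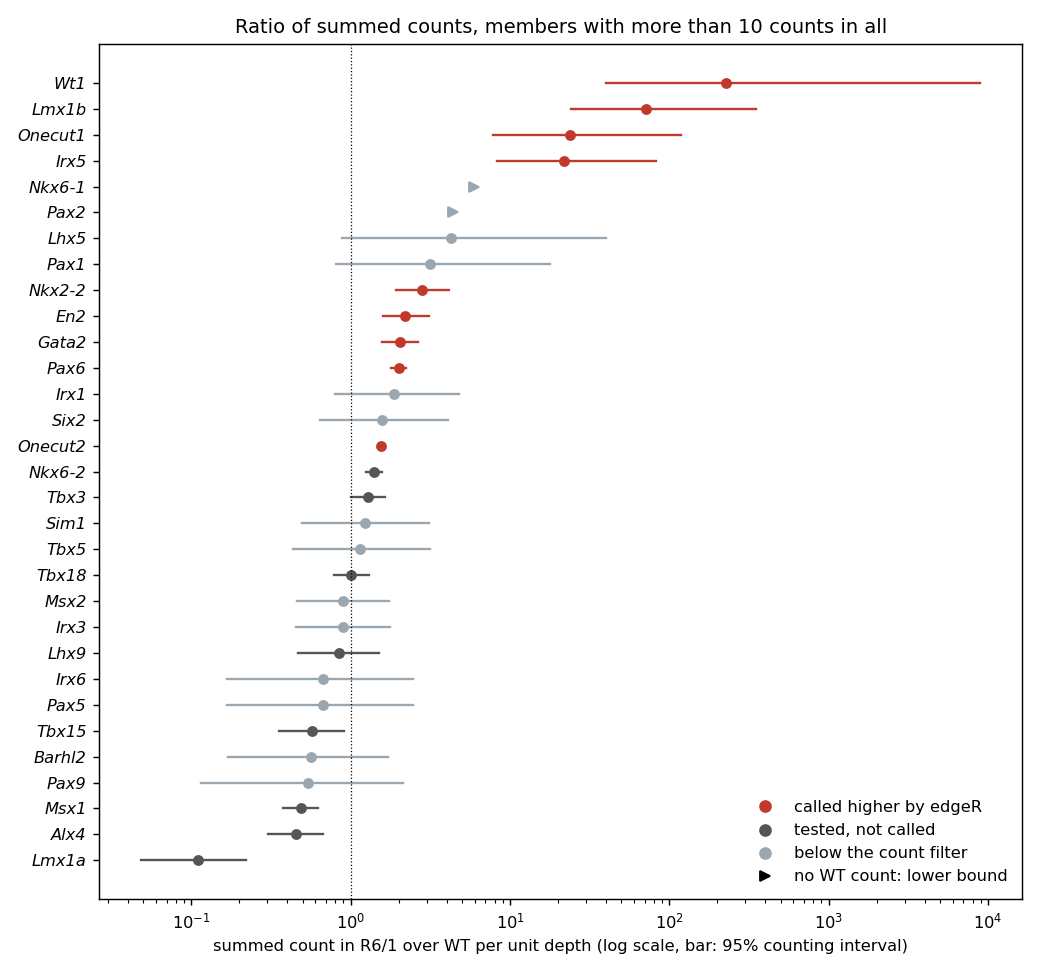
Summed count in R6/1 over WT per unit depth (horizontal axis, logarithmic) with 95% counting intervals for the 31 members with more than 10 counts in all, red where called higher, dark grey where tested and not called, light grey where below the filter, and arrows for lower bounds where WT had no count. Wt1 stands highest at 226 and Lmx1a lowest at 0.110, and the light grey intervals with a WT count all include 1.

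The remaining members were close to the limit of counting in both groups. Among the 28 below the filter, the counting interval lay above 1 for 2 (Nkx6-1 and Pax2) and included 1 for the other 26. The highest count in any library among these 26 was 13, for Msx2. Six2, a kidney progenitor regulator, had 6 and 9 counts in R6/1 and 2, 2 and 5 in WT. Sim1, a bHLH-PAS regulator of the hypothalamus, had 13 counts in R6/1 and 10 in WT, and Barhl2, a homeobox gene of retina and spinal cord, had 6 in R6/1 and 10 in WT. In R6/1, Barhl1 had 4 counts, Shox2 3, Tlx3 2 and Evx1 0, against 0 for Barhl1 and 1 for each of the others in WT.

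Lmx1a, Msx1 and Alx4 varied with choroid plexus transcripts, not only with genotype. The 12 choroid plexus markers summed to 180.7 and 101.6 CPM in R6/1, against 4007, 3901 and 156.9 CPM in WT replicates 1, 2 and 3. All 12 were counted in each library, and 5 were called lower with all libraries, 12 without WT replicate 3 and 0 without WT replicate 1 or 2 or either R6/1 library. Lmx1a (ENSMUSG00000026686), a roof plate and midbrain regulator, had 4 and 5 counts in R6/1, against 36, 38 and 3 in WT. Msx1 (ENSMUSG00000048450), a craniofacial and dorsal midline regulator, had 61 and 38 counts in R6/1, against 94, 87 and 11 in WT. Alx4 (ENSMUSG00000040310), a craniofacial and limb regulator, had 20 and 19 counts in R6/1, against 41, 26 and 14 in WT.

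In all of these genes WT replicates 1 and 2 were high, and WT replicate 3 was near or below the R6/1 libraries in CPM. The log2 fold changes were -3.16 (SE 1.01) for Lmx1a, -1.08 (SE 0.74) for Msx1 and -1.14 (SE 0.47) for Alx4, with edgeR adjusted p of 0.0631, 0.329 and 0.121. No member fell in edgeR, where 2 had an unadjusted p below 0.05 with a lower level in R6/1 (Lmx1a and Alx4), while DESeq2 called 1 lower (Lmx1a, adjusted p = 0.0124) and limma-voom 0. Without WT replicate 3, Lmx1a (adjusted p = 0.00398), Msx1 (0.0140) and Alx4 (0.0375) all fell. With the choroid plexus level as a covariate the log2 fold changes were -0.10 for Lmx1a, 1.54 for Msx1 and -0.16 for Alx4, with adjusted p of 0.9496, 0.0509 and 0.861. Of the 12 markers of meningeal and perivascular fibroblasts, 2 fell and 10 did not pass, beside 12.8% lower over all tested genes. Their sum was also highest in WT replicates 1 and 2, with 48.9 and 42.0 CPM in R6/1, against 89.9, 81.9 and 43.5 CPM in WT. Igf2 alone gave 35.2, 40.2 and 7.99 CPM of these WT sums. Not every marker had this order, and Col1a1, Col1a2 and Col3a1 were highest in R6/1 replicate 1. Wt1, Lmx1b, Irx5, Onecut1 and Pax6 were called higher with the choroid plexus covariate. This covariate, a centred mean log2 level, was 1.95 and 2.10 in WT replicates 1 and 2. It was -1.335 in WT replicate 3 and -1.10 and -1.62 in R6/1, so the covariate fit sets R6/1 mainly against WT replicate 3. When WT replicates 1 and 2 were dropped together, the log2 fold changes of the 9 rises ran from 0.52 (Onecut2) to 9.73 (Wt1). That last fit has a single WT library, which is assumed to vary like the R6/1 libraries.

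**Figure D4:**
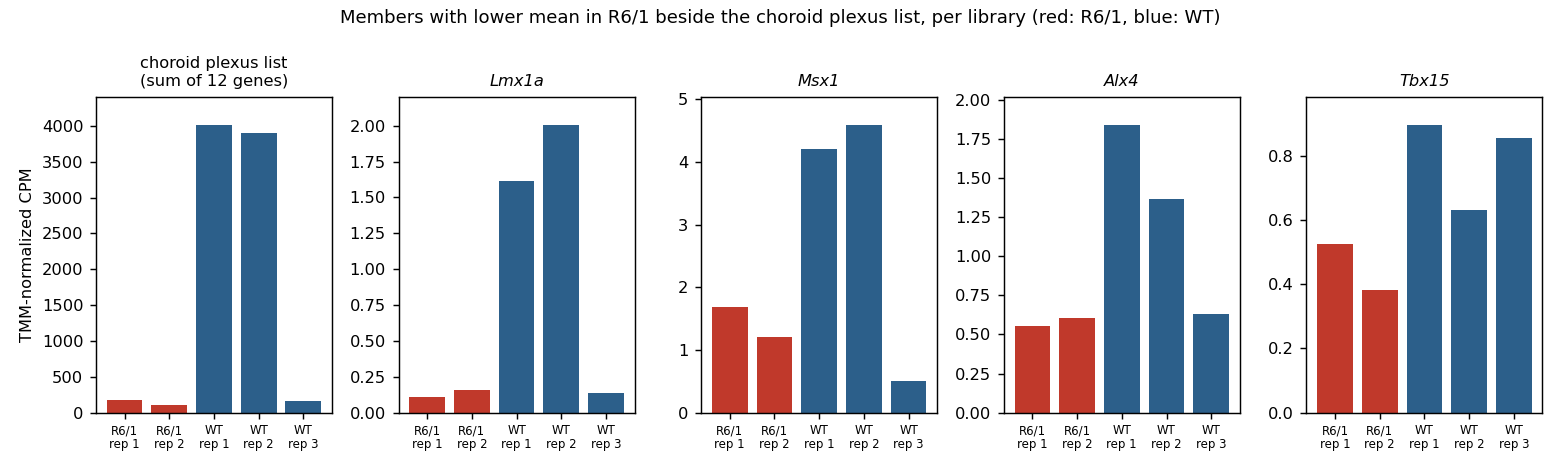
TMM-normalized CPM per library (bars, R6/1 in red left of WT in blue) of the summed choroid plexus list and of Lmx1a, Msx1, Alx4 and Tbx15, each panel with its own scale from 0. WT replicates 1 and 2 stand apart in the choroid plexus list, Lmx1a, Msx1 and Alx4, whereas Tbx15 has 0.857 CPM in WT replicate 3.

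Several members that rose are known from the midbrain, hindbrain or thalamus, so markers of those regions were examined. Of 10 midbrain and hindbrain markers, 5 were tested and none was called by edgeR, where none had an unadjusted p below 0.05 and DESeq2 and limma-voom also called 0. The list summed to 18.2 and 20.3 CPM in R6/1, against 12.9 to 19.5 CPM in WT. Th, the enzyme of dopamine synthesis, was at 2.95 ± 0.0249 CPM in R6/1 and 3.69 ± 0.605 CPM in WT. Slc6a5 had 23 and 17 counts in R6/1, against 6, 5 and 11 in WT, and both R6/1 libraries lay above all WT libraries in CPM. The log2 fold changes were 0.77 (SE 0.42) for Slc6a5 and 0.33 (SE 0.27) for Ddc. They were -0.32 (SE 0.42) for Slc18a2 and -0.02 (SE 0.56) for Tph2. Slc6a3, the dopamine transporter, had 4 and 2 counts in R6/1 and 6, 4 and 5 in WT, and Fev, a regulator of serotonergic neurons, had 1 and 0 counts in R6/1 and none in WT. The 9 thalamic and habenular markers summed to 228.7 and 226.0 CPM in R6/1, against 236.3 to 245.8 CPM in WT, and 1 of 8 tested rose, Pou4f1, which is itself a developmental regulator.

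Of the other marker lists, edgeR called 0 of 6 tested markers of septum and hypothalamus, 0 of 9 of cortical projection neurons, 0 of 10 of endothelial cells and 0 of 8 of microglia. At an unadjusted p below 0.05 there were 3 in the septal list (1 higher, 2 lower), 0 in the cortical list, 3 in the endothelial list (1 higher, 2 lower) and 0 in the microglial list. DESeq2 called 0 in each but the endothelial list, with 1 higher and 1 lower, and limma-voom called 0 in all 4. Ependyma had 2 falls among 7, astrocytes 1 rise and 3 falls among 9, and olfactory bulb and migrating neuroblasts 1 rise and 1 fall among 5. Over all tested genes 9.72% rose and 12.8% fell, the shares that stand beside each marker list.

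Genes next to the gained regulators were examined on both sides, in GENCODE gene order. Among the 18 nearest counted neighbours of the 9 rises, 4 rose, 2 fell, 7 did not pass and 5 were below the filter, beside 9.72% higher and 12.8% lower over all tested genes. The rises C130021I20Rik, 4933436C20Rik and Gm16551 passed that filter only through R6/1, so the share that rose cannot be read against this background. C130021I20Rik, a non-coding transcript that starts beside Lmx1b on the opposite strand, had 252 and 314 counts in R6/1, against 2, 4 and 1 in WT. Its log2 fold change was 6.20 (SE 0.40, edgeR adjusted p = 0.000192), and one of its exons lies in the Lmx1b promoter window printed above. It overlaps Lmx1b in RefSeq, so that with the strand setting unknown reads of the overlap cannot be told apart, as holds for Nkx2-2 and Nkx2-2as. Gm13530, the next counted gene on the other side of Lmx1b, had 37 and 17 counts in R6/1 and 8, 9 and 16 in WT and did not pass (edgeR adjusted p = 0.364).

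At Irx5, the neighbour on the opposite strand is the non-coding 4933436C20Rik, named Crnde in RefSeq. It had 87 and 141 counts in R6/1, against 9, 10 and 6 in WT, with a log2 fold change of 3.11 (SE 0.39, edgeR adjusted p = 0.00255). At Onecut1, the non-coding Gm16551 had 44 and 38 counts in R6/1, against 8, 7 and 7 in WT, with a log2 fold change of 1.79 (SE 0.31, edgeR adjusted p = 0.00814, lost in 3 of 13 alternatives). BC031353, on the other side of Onecut1, was at 113.8 ± 15.4 CPM in R6/1 and 155.1 ± 24.2 CPM in WT and did not pass (edgeR adjusted p = 0.0658). At Wt1, AI314831 (Wt1os in RefSeq), the antisense transcript beside it, had 1 count in each group. Both neighbours of En2 fell, Insig1, a regulator of sterol synthesis, with a log2 fold change of -0.94 (SE 0.09, edgeR adjusted p = 0.00104) and Cnpy1 with one of -1.90 (SE 0.54, edgeR adjusted p = 0.0427, lost in 7 of 12 alternatives).

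**Figure D5:**
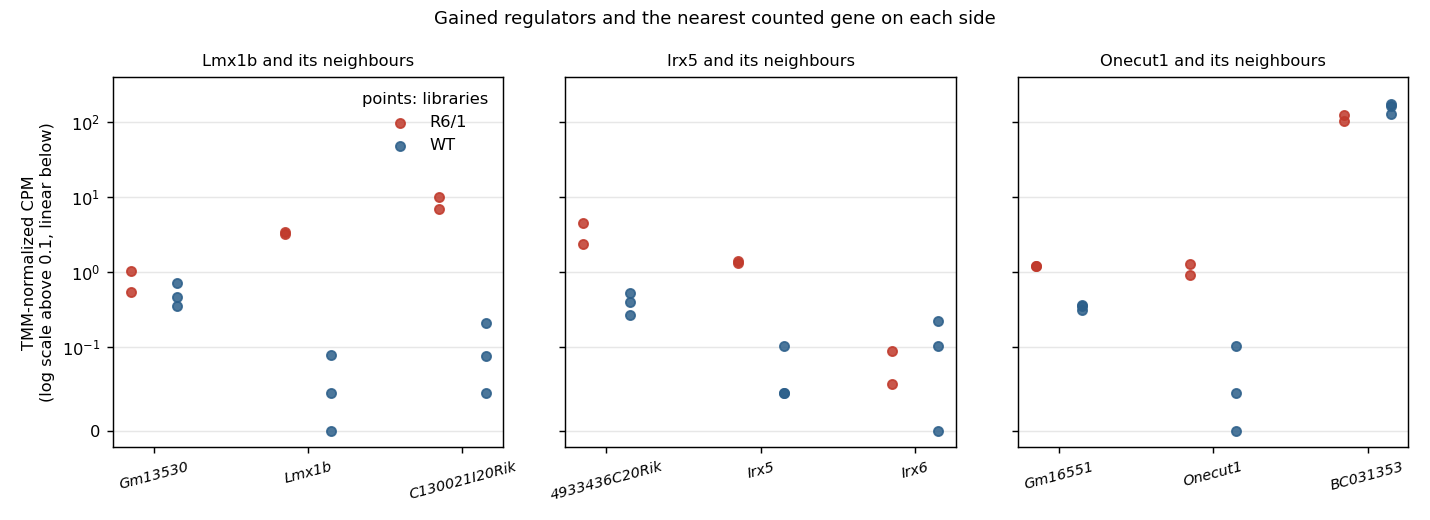
TMM-normalized CPM (vertical axis, logarithmic above 0.1 and linear below) of Lmx1b, Irx5 and Onecut1, each between the nearest counted gene on either side, with 1 point per library, R6/1 in red left of WT in blue. One neighbour of each gene, C130021I20Rik, 4933436C20Rik and Gm16551, has both R6/1 points above its 3 WT points, and Irx6 overlaps between the groups.

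Other developmental regulators, a list of 150 outside the Hox clusters, gave 120 rows, of which 52 were tested. Their median log2 fold change was 0.21, against -0.01 over all tested genes, and 6 rose, 2 fell and 44 did not pass, beside 9.72% higher and 12.8% lower over all tested genes. Pou4f1, Meox2, Barx1 and Twist1 passed the filter only through R6/1, so neither the share that rose nor the median can be read against all genes. Pou4f1, a regulator of sensory and habenular neurons, had 124 and 112 counts in R6/1, against 2, 1 and 3 in WT (log2 fold change 5.15, SE 0.34, edgeR adjusted p = 0.000214). Meox2, a somite and vascular regulator, had 54 and 62 counts in R6/1, against 7, 3 and 4 in WT (log2 fold change 2.95, SE 0.38, edgeR adjusted p = 0.00273). Barx1, known from stomach and teeth, had 17 and 15 counts in R6/1 and none in WT. Barx1 was 10.0-fold higher in R6/1 against the floor, with a counting interval that began at 7.70. Its call, at an edgeR adjusted p of 0.0124, was lost in 3 of 11 alternatives (0.00108 to 0.0874), 2 of them without an R6/1 library.

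Prox1, a regulator of lymphatic vessels and of neural progenitors, rose from an expressed level, at 26.9 ± 4.20 CPM in R6/1 and 14.95 ± 0.325 CPM in WT (log2 fold change 0.85, edgeR adjusted p = 0.00391). Gbx1, a ventral forebrain and spinal cord regulator, fell, with 26 and 20 counts in R6/1, against 58, 49 and 46 in WT (log2 fold change -1.82, SE 0.26, edgeR adjusted p = 0.00423). Without R6/1 replicate 1 or 2, 3 of the 6 rises and 1 of the 2 falls were called.

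The Polycomb group genes themselves were all expressed. Of 42 listed, 41 had a row and were tested, 9 rose, 2 fell and 30 did not pass, against the 9.72% and 12.8% of all genes, and the median log2 fold change was 0.09. Cbx7, a chromodomain subunit of the repressive complex PRC1, rose by 0.62 (SE 0.11), and Phf1, an accessory subunit of the methylating complex PRC2, by 0.61 (SE 0.10) on the log2 scale. Asxl1, a partner of the histone H2A deubiquitinase, rose by 0.34 (SE 0.07). Ezh2, the methyltransferase of PRC2, fell to 22.3 ± 4.44 CPM in R6/1, against 35.6 ± 1.53 CPM in WT (log2 fold change -0.68, SE 0.13, edgeR adjusted p = 0.0121), and Bap1, the deubiquitinase, fell by 0.33 (SE 0.07). Without R6/1 replicate 1, 2 of the 9 rises were called, without R6/1 replicate 2, 1, and without WT replicate 3, 4, while with no scaling beyond the library total 16 genes rose. The fall of Ezh2 was lost without R6/1 replicate 2 (edgeR adjusted p = 0.0665) and with the choroid plexus covariate (0.0645), and that of Bap1 in 4 of 13 alternatives, among them leaving out either R6/1 library.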

How the data were processed

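Total RNA of the striatum from 2 R6/1 and 3 WT libraries was analysed. The authors deposited 1 table with raw counts for each gene, a normalized signal (each library's counts over its size factor), and that signal per kb. It also holds the authors' own log2 fold changes with p-values, used here only in sentences that name the authors' deposited table. Build mm9 and the tools HTSeq 0.5.4p3, TopHat 1.4.1, CASAVA 1.8.2 and DESeq2 1.0.19 are named in the submitters' processing notes. The sources used here do not give the annotation release, the strand setting or what was done with multi-mapping reads.

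Genes were tested with edgeR 4.0.16 in R 4.3.3 (quasi-likelihood F test, TMM, filterByExpr with a minimum count of 10 and a total of 15, genotype alone), adjusted over all 17202 genes tested by Benjamini-Hochberg. The SE is the one implied by the F statistic. DESeq2 1.42.0 and limma 3.58.1 (voom), other scalings and filters, a choroid plexus covariate and left-out libraries were alternatives. Ratios of summed counts use TMM-scaled totals with exact Clopper-Pearson intervals at 95%. Intervals cover counting error only, and the floor of 3 counts covers that of WT alone. Same-group libraries differed beyond sampling noise (chi-square 10.6 to 19.1 per gene). The steps were tested on simulated data.

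Members and lists were chosen with earlier results of these data known. Every member called, and every other with at least 10 counts in a library, is described, with up to 4 called genes per direction from each other list, and the nearest counted gene on each side of a member that rose. Gene order, strand and promoters come from GENCODE M21 and RefSeq on GRCm38, not the authors' build, so coordinates apply only to the printed promoters. Some genes that this rule selects are not reported here.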

Additional observations from a re-analysis of the deposited data

How the results depend on the processing

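The 9 members called higher in R6/1 numbered 8 to 11 under another tool, scaling or filter, 5 with the choroid plexus covariate and 5 to 8 with 1 library left out. Wt1, Lmx1b, Irx5 and Pax6 were called in all 13 alternatives, and Onecut1 in all 12 that tested it. No member was called lower, against 1 with DESeq2, 1 with no filter and 0 to 3 with 1 library left out. Other developmental regulators called higher numbered 6, against 3 with the covariate and 3 to 6 with 1 library left out, and those called lower numbered 2, against 1 with limma-voom, 4 with no filter, 1 with the filter on mean CPM, 1 with the covariate and 1 to 3 with 1 library left out. Polycomb genes called higher numbered 9, against 16 without scaling, 3 with the covariate and 1 to 10 with 1 library left out, and those called lower 2, against 1, 0 and 0 to 3. Over all genes, 1672 were higher, against 3237 without scaling, 503 with the covariate and 280 to 2277 with 1 library left out, and 2210 lower, against 1094 with the covariate and 776 to 2576. Leaving out scaling gave a median log2 fold change of tested genes of 0.11, against -0.01 with TMM. The covariate fit has 1 degree of freedom fewer, and for the other changes the cause was not tested. Of the log2 fold changes of named genes under the alternatives, 527 kept their side of the threshold, 11 newly passed it, 87 no longer passed it and 0 that were called turned direction. No paired analysis was possible because the labels give the groups no shared replicate numbers. With 1 library left in a group, that library is assumed to vary like those of the other group. With 2 against 3 libraries and few WT counts, depth limits what can be said of the 28 members below the filter. Marker counts and neighbouring genes were examined under these alternatives after seeing the data.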

Other observations

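Core subunits of both Polycomb complexes were among the genes that rose, and they were chosen here after their values were seen. In PRC1, Cbx8, a chromodomain subunit, was at 17.2 ± 1.31 CPM in R6/1 (SD, n = 2) and 10.8 ± 1.35 CPM in WT (SD, n = 3), with a log2 fold change of 0.68 (SE 0.14). Bmi1, which stabilizes the ubiquitin ligase, had a log2 fold change of 0.34 (SE 0.08) and Phc1 one of 0.43 (SE 0.10). In PRC2, Eed, which binds the methylated histone tail, had a log2 fold change of 0.40 (SE 0.10) and Suz12, its scaffold, one of 0.23 (SE 0.07), whereas the methyltransferase Ezh2 fell. All 5 calls (edgeR adjusted p of 0.0171 to 0.0481) were lost when either R6/1 library was left out, with edgeR adjusted p up to 0.221 over all alternatives.

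Among the other developmental regulators, Twist1, a bHLH factor of mesoderm and neural crest, had 26 and 32 counts in R6/1, against 6, 3 and 4 in WT (log2 fold change 2.06, SE 0.42, edgeR adjusted p = 0.0144). Sall3, a zinc finger gene of limb and nervous system development, had 218 and 132 counts in R6/1, against 58, 56 and 68 in WT (log2 fold change 0.84, SE 0.22, edgeR adjusted p = 0.0335). Both R6/1 libraries lay above all WT libraries for each gene, as for 27.2% of tested genes. Nothing is read from this, because the genes were chosen among those called and Twist1 passed the filter only through R6/1. Each call was lost without either R6/1 library. Without R6/1 replicate 1 or 2, the log2 fold changes were 2.294 and 1.798 for Twist1 and 0.5527 and 1.075 for Sall3. Both genes were chosen after their values were seen.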
